A study of Mus musculus with 24 samples.

Results

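Amino acid breakdown and the urea cycle were followed through 45 genes, out of 56941 genes in the deposited tables. The 45 were chosen by symbol, with earlier results of these data known. All 45 were found, and all 45 were among the 20514 genes with enough reads to be tested. Liver polyA RNA had been sequenced from global Bmal1 knockout mice (KO, Bmal1-/-) and wild-type mice (WT, Bmal1+/+), both bred from Bmal1+/- parents on the C57BL/6J background. The second line held liver-specific knockout mice (LKO, Alb-Cre; Bmal1f/f) and floxed mice without Cre (F, Bmal1f/f), so that LKO and F shared the floxed alleles and differed in Cre. In LKO mice the albumin promoter drives Cre in hepatocytes, and the other cells of the liver keep Bmal1. No group with Cre and without floxed alleles was analysed here, and no source used here states the age or sex of the mice. Each genotype was sampled at circadian times CT14 and CT2, early in the subjective night and early in the subjective day, with 3 libraries in each of the 8 groups.

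Amino acids that are not used for protein are broken down mainly in hepatocytes. Transaminases collect their nitrogen on glutamate, glutamate dehydrogenase and glutaminase release it as ammonia, and the urea cycle turns ammonia into urea. The carbon skeletons pass into gluconeogenesis, ketone bodies or the one-carbon cycle, in which methionine and homocysteine are interconverted. BMAL1, with CLOCK, binds E-boxes and drives the genes of the negative limb of the clock, among them the REV-ERB repressors Nr1d1 and Nr1d2, which act at ROR elements. Daily rhythms of feeding and of glucocorticoids also reach these genes.

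Library totals ran from 88995300 to 131545000 estimated counts, and no member had fewer than 797 counts in any library. Bmal1 itself, the check of the labels, had 4.29, 4.69 and 5.08 TPM (a level scaled for transcript length and library size) in KO livers at CT2, against 16.6, 18.8 and 19.3 TPM in WT livers, and 4.90, 5.59 and 3.73 TPM in LKO livers, against 16.6, 15.6 and 15.2 TPM in F livers. At CT14, near the daily low of this gene, it had 4.15, 4.44 and 4.44 TPM in KO livers, against 3.56, 4.56 and 1.41 TPM in WT livers, and 4.03, 3.67 and 3.95 TPM in LKO livers, against 1.56, 8.49 and 6.14 TPM in F livers. The groups overlapped at CT14, so that Bmal1 checks the labels at CT2 only. Summed hepatocyte markers, none of the 10 at 0, ran from 68669 to 94625 TPM in KO and LKO livers and from 76931 to 122802 TPM in WT and F livers. In tissue RNA, fewer cells of a type and less RNA per cell cannot be told apart. Several libraries stood apart. KO CT2 replicate 1 and replicate 3 of both LKO and F at CT2 were low in Y-linked Ddx3y. F CT2 replicate 3 and F CT14 replicate 3 carried pancreatic acinar transcripts (4797 and 1300 TPM summed, against 50 to 215 TPM elsewhere), and KO CT14 replicate 3 was high in interferon-stimulated genes. Spermatid transcripts summed to 20.2 to 79.8 TPM in all LKO and F libraries and to 26.2 and 26.0 TPM in KO CT2 replicate 2 and KO CT14 replicate 1, against 4.18 to 6.68 TPM in the other KO and WT libraries.

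Promoter sequence is shown for 3 members with a large difference at CT14 and a match to a motif searched here, chosen after their values were seen. RefSeq windows on build GRCm38.p6, 250 bases before to 50 bases after a start site, were at hand for 32 of the 45 members, with 37 windows in all. The E-box was searched as CACGTG, which reads alike on both strands, and the core of the ROR element as AGGTCA on both strands; the letters of these motifs do not overlap. An E-box lay in 3 of the 37 member windows (8.11%, against 7.15% of all 32851 windows), those of Cbs, Ass1 and Slc25a15. The ROR element core lay in 13 member windows (35.1%, against 16.3% of all windows), among them those of Bhmt and Amt. The 250 bases before each start site follow, 5′ to 3′ on the strand of the gene, with the motif in capitals (in Amt it reads TGACCT, the reverse complement).
Cbs, chr17:31637206-31637455, minus strand, E-box at -229: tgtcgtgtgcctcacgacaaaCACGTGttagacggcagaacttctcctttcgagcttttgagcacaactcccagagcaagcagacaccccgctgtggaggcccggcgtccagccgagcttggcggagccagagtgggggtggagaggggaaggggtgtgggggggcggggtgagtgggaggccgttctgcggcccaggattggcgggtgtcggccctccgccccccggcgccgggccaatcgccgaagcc
Amt, chr9:108296655-108296904, plus strand, ROR element core at -240: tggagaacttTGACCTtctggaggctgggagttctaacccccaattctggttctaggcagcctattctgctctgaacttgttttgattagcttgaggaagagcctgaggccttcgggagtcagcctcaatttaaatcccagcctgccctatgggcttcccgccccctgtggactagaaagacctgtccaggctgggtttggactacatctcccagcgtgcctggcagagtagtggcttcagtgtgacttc
Bhmt, chr13:93637759-93638008, minus strand, ROR element cores at -234, -72 and -47: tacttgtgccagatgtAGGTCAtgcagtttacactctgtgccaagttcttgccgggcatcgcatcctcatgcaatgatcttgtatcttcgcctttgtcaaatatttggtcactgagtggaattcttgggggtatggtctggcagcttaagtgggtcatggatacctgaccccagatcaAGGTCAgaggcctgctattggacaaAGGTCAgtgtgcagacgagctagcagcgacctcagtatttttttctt
A match describes letters in a window and not a bound site or a whole ROR element.

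**Figure D1:**
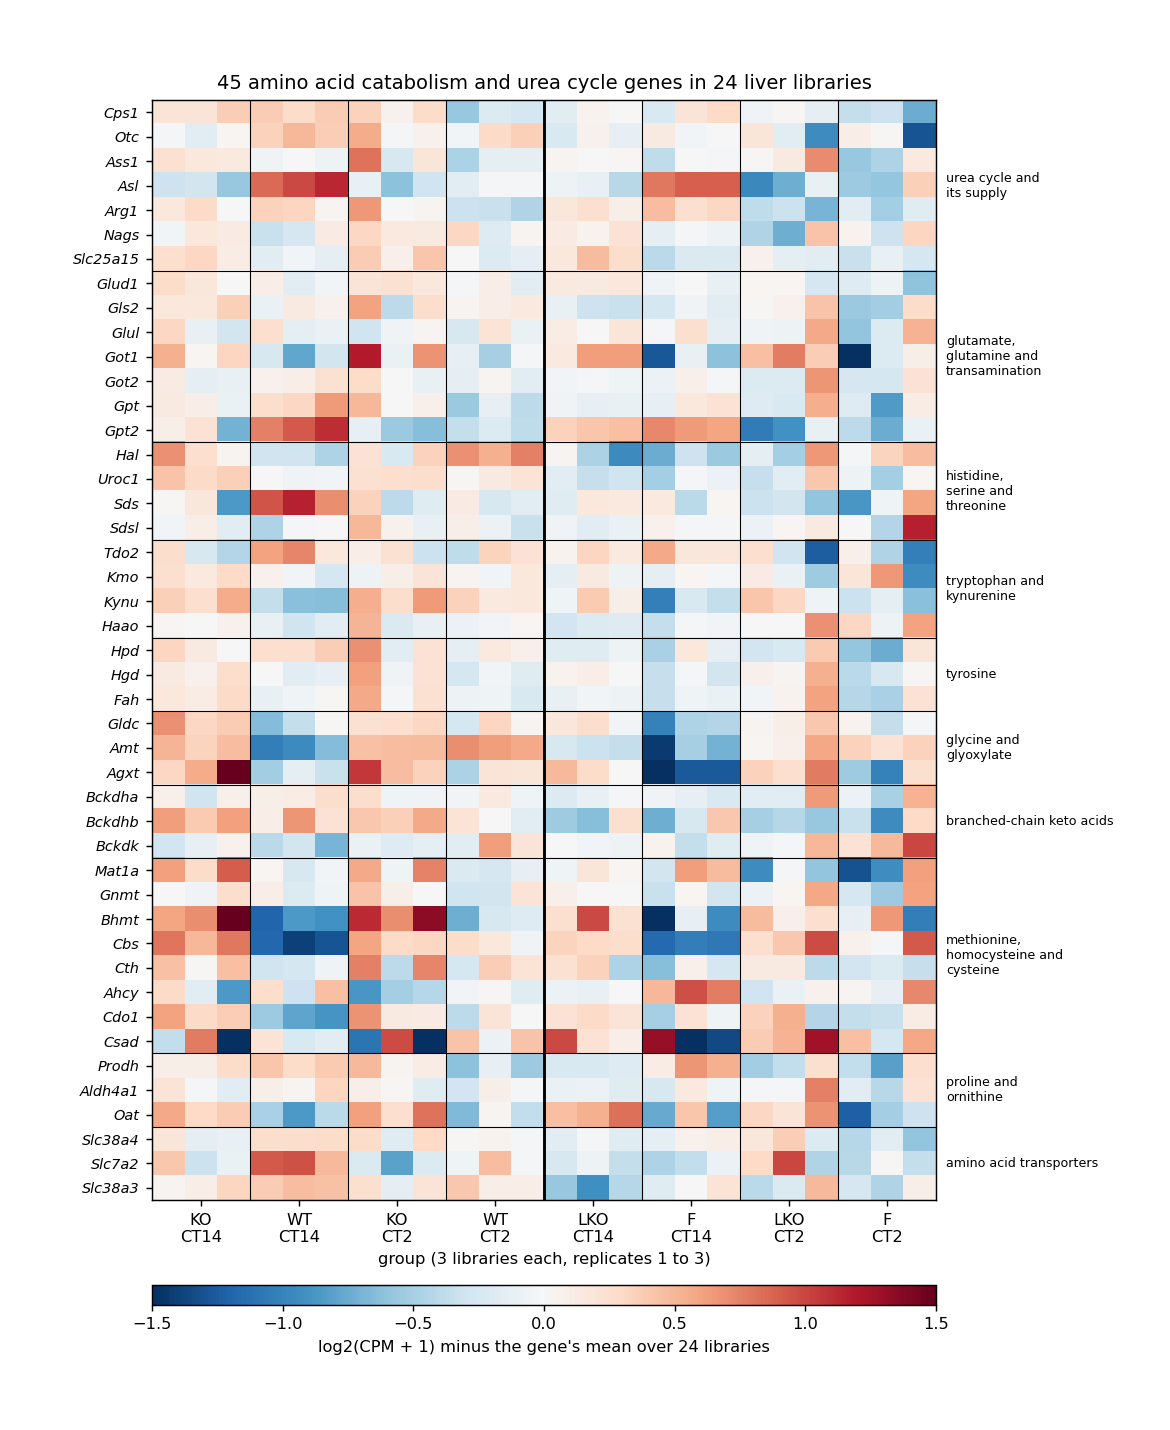
Heatmap of log2(CPM + 1) of the 45 members, each minus the gene's own mean over the 24 libraries, with libraries in columns by group and genes in rows by role; colours span -1.5 to 1.5. Cbs and Amt are low in the WT and F libraries at CT14, Asl is high there, and Bhmt, Agxt and Oat are high in most KO and LKO libraries.

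Averaged over both times, 9 of the 45 members rose and 1 fell in KO against WT livers, which is 10 called members (edgeR quasi-likelihood test, Benjamini-Hochberg adjusted p under 0.05 over all 20514 genes). Of all genes tested 5.4% were called, 3.11% higher and 2.29% lower. Calls below are those of edgeR unless another tool is named. Bhmt, Cbs, Agxt, Oat, Cdo1, Kynu, Amt, Gldc and Slc25a15 rose, and Asl fell. In LKO against F livers 7 members rose and 1 fell, beside 3.13% of all genes called, 1.7% higher and 1.43% lower. Of the members Agxt, Got1, Oat, Cbs, Kynu, Gldc and Slc25a15 rose, and Asl fell. DESeq2 called the same genes and, beyond them, Got1, Gpt2 and Slc7a2 in KO livers (8.74% of all genes) and Ahcy in LKO livers (5.05%). Limma on log2(TPM + 1) also called them all, and beyond them Arg1, Ass1, Cps1, Fah, Glud1, Got1 and Hgd in KO livers (8.24%) and Ass1, Bhmt, Fah, Glud1, Hgd and Slc38a4 in LKO livers (8.02%). The edgeR lists share 7 genes, which is 70% of the KO list and 87.5% of the LKO list. The overlap of the lists over all genes is not given here. The comparisons have no library in common, but both took their estimate of spread from 1 fit of all 24 libraries. The members' median log2 fold change was 0.20 in KO livers and 0.13 in LKO livers, beside 0.01 and -0.01 over all genes. When the libraries were scaled by TPM instead, genes of the members' level range shifted by a median of 0.16 in KO livers and 0.20 in LKO livers, and fold changes here are from counts. The TPM of 3 knockout and 3 control libraries did not overlap for 28.8% of all genes in KO livers at CT14, 16.6% at CT2, 34% in LKO livers at CT14 and 12.9% at CT2. With only the LKO and F libraries in the fit, 2 members were called, Agxt and Cbs (2.62% of all genes), and the LKO count was 5 without F CT2 replicate 1 or F CT14 replicate 1 and 4 without LKO CT14 replicate 2.

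More members were called at CT14 than at CT2. At CT14, 8 members rose and 3 fell in KO against WT livers (5.31% of all genes, 3.15% higher and 2.15% lower). In LKO against F livers 4 rose and 1 fell (1.73% of all genes, 0.814% higher and 0.912% lower). The KO count at CT14 dropped to 6 without WT CT14 replicate 1 or KO CT14 replicate 3 and to 7 without WT CT14 replicate 2, and the LKO count dropped to 2 or 3 without F CT14 replicate 1 or 3 or any LKO CT14 library. At CT14, DESeq2 called Slc25a15 as well in KO livers (8.75% of all genes) and Bhmt and Kynu as well in LKO livers (3.92%). Limma called Hal and Slc25a15 as well, but not Sds, in KO livers (6.81%), and Bhmt, Got1, Kynu and Oat as well in LKO livers (4.19%). At CT2, no member was called in KO livers (0.517% of all genes) or in LKO livers (0.4%) by edgeR, while 11 members had an unadjusted p under 0.05 in each (8.99% of all genes in KO and 8.88% in LKO livers). DESeq2 called 4 members in KO livers at CT2, Arg1, Bhmt, Cps1 and Slc25a15 (1.93% of all genes), and limma on log2(TPM + 1) called Arg1 (0.955%). In LKO livers Oat and Slc38a4 were called by DESeq2 (2.13% of all genes) and by limma (1.07%). The tests of whether the genotype difference itself changed with time are given with the time effects.

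**Figure D2:**
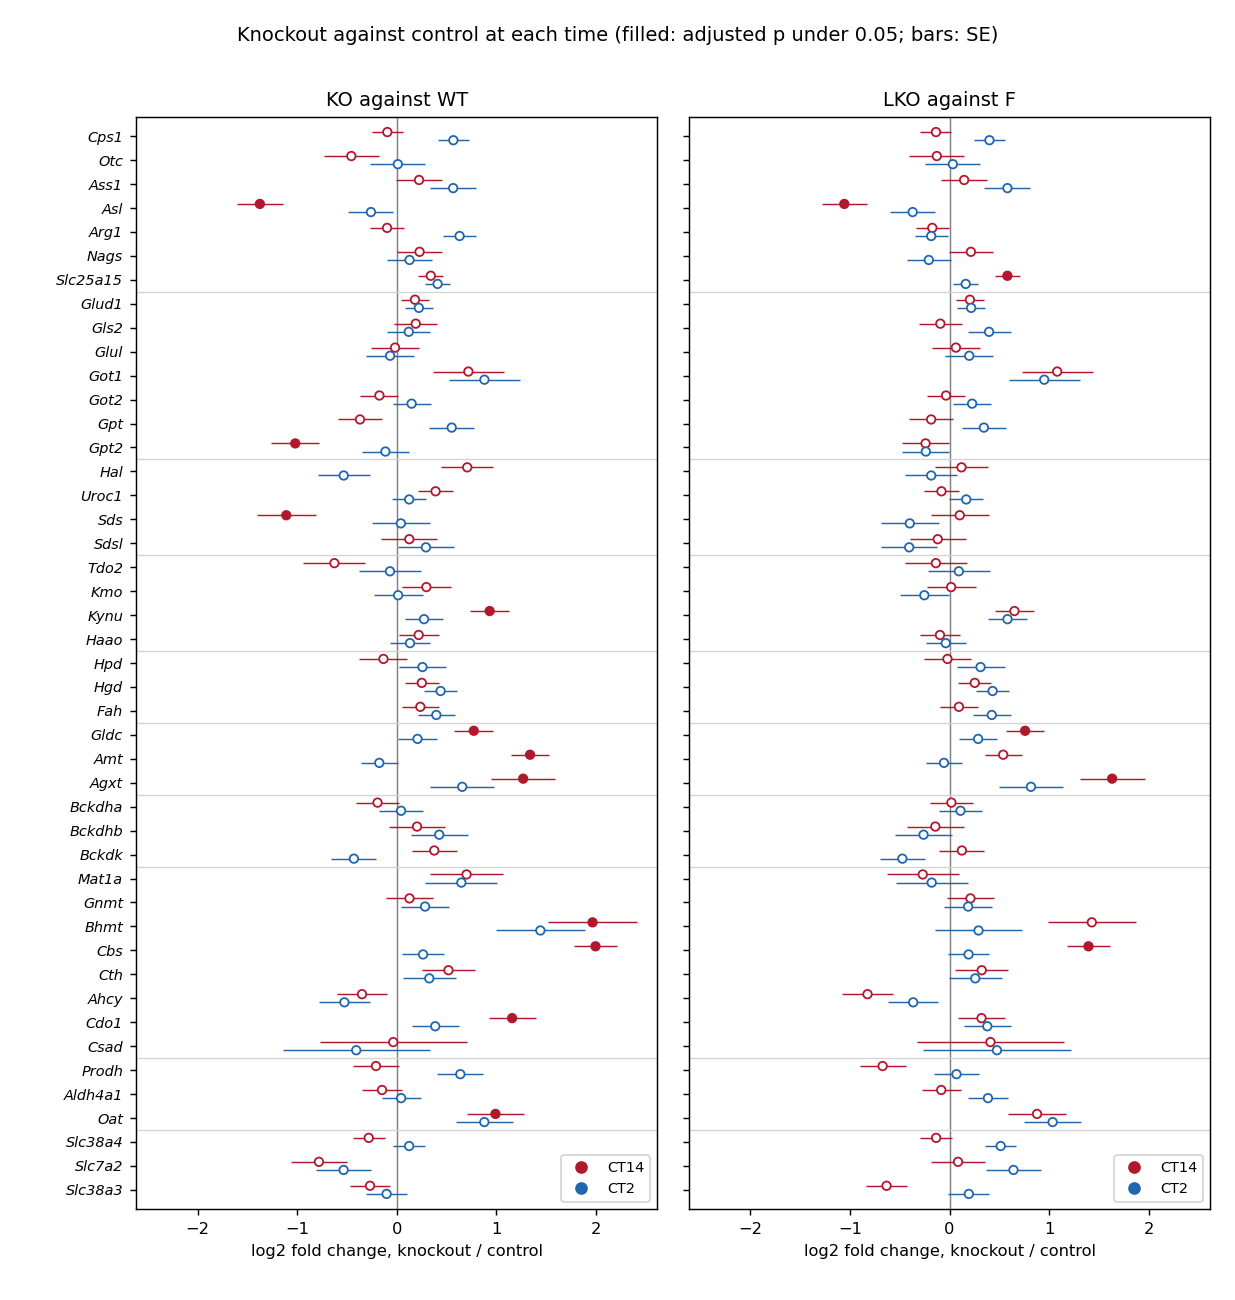
Log2 fold change of each member, KO over WT (left panel) and LKO over F (right panel), at CT14 (red) and CT2 (blue), with bars of ± 1 SE; filled points passed adjusted p under 0.05. At CT14, Cbs, Amt and Bhmt lie far to the right and Asl far to the left in the KO panel, and no point is filled at CT2.

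The urea cycle moved in parts. Asl, argininosuccinate lyase, which releases arginine, had 314, 368 and 275 TPM in KO livers at CT14, against 716, 677 and 781 TPM in WT livers. LKO livers had 421, 346 and 296 TPM at CT14, against 559.7, 732 and 723 TPM in F livers. No knockout library at CT14 reached its controls, while at CT2 the 338, 306 and 354 TPM of KO livers overlapped the 335, 364 and 402 TPM of WT livers, and the 223, 272 and 348 TPM of LKO livers overlapped the 256, 232 and 459 TPM of F livers. The log2 fold change at CT14 was -1.37 ± 0.23, adjusted p = 0.000767 in KO livers and -1.06 ± 0.23, adjusted p = 0.0148 in LKO livers. Averaged over times it was -0.82 ± 0.16, adjusted p = 0.00338 in KO livers and -0.71 ± 0.16, adjusted p = 0.0140 in LKO livers, the second of which reached adjusted p = 0.0510 without LKO CT14 replicate 3. That mean LKO call was also lost in the fit of LKO and F alone and without the 2 F libraries with pancreatic transcripts (up to 0.0881). The LKO call at CT14 was lost without any library of that comparison but F CT14 replicate 1 (adjusted p from 0.0505 to 0.109).

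Slc25a15, the mitochondrial ornithine carrier that feeds the cycle, had 158, 184 and 149 TPM in KO livers at CT14, against 113, 109 and 113 TPM in WT livers. KO livers had 160.0, 159 and 202 TPM at CT2, against 123, 108 and 123 TPM in WT livers. Every KO library was above every WT library at its time. It had 168, 194 and 179.9 TPM in LKO livers at CT14, against 85.0, 111 and 111 TPM in F livers. LKO livers had 150.4, 138 and 115 TPM at CT2, against 102, 109 and 107 TPM in F livers. Knockout and control libraries did not overlap in TPM at either time, although in CPM (counts scaled to library size, with no length term) LKO and F overlapped at CT2. The change was small, with a log2 fold change of 0.38 ± 0.09, adjusted p = 0.0143 in KO livers and 0.37 ± 0.09, adjusted p = 0.0224 in LKO livers, and the gene had the lowest spread between replicates of all members (pooled SD 0.125 in log2 CPM). In LKO livers it was called at CT14 as well (0.58 ± 0.13, adjusted p = 0.0157), and both LKO calls were lost without some libraries: F CT14 replicate 1 and LKO CT14 replicate 2 for both, F CT2 replicate 1 and LKO CT2 replicate 1 for the mean (adjusted p up to 0.0845), and F CT14 replicate 3 and LKO CT14 replicate 3 at CT14 (up to 0.132). The mean LKO call was also lost in the fit of LKO and F alone and without the 2 F libraries with pancreatic transcripts (up to 0.0848).

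Cps1, the mitochondrial carbamoyl phosphate synthetase that commits ammonia to the cycle, had 1103, 1224 and 1288 TPM in KO livers at CT14, against 1190.0, 988 and 1169.6 TPM in WT livers. KO livers had 1134, 1139 and 1327 TPM at CT2, against 606, 785 and 815 TPM in WT livers. KO and WT livers overlapped at CT14 and were apart at CT2. In LKO livers it had 979.7, 1048 and 1087 TPM at CT14, against 693, 1064 and 1156 TPM in F livers. LKO livers had 1010.5, 1114 and 843 TPM at CT2, against 727, 689.9 and 558 TPM in F livers. LKO and F livers likewise overlapped at CT14 and were apart at CT2. The difference at CT2 did not pass the edgeR test in KO livers (0.57 ± 0.16, adjusted p = 0.141) or in LKO livers (0.40 ± 0.16, adjusted p = 0.384), and at CT14 the interval in KO livers was -0.40 to 0.21. In KO livers Cps1 was called by DESeq2 at CT2 (adjusted p = 0.00988) and by limma averaged over times (0.0444). Ass1, argininosuccinate synthase, averaged 2403 ± 100.2 TPM in KO and 1781 ± 71.2 TPM in WT livers at CT14 (SD, n = 3 each) and was not called by edgeR in any comparison. Limma on TPM called it averaged over times, at an adjusted p of 0.0298 in KO livers and 0.0215 in LKO livers. Arg1, the arginase that splits off urea, averaged 1805 ± 246 TPM in KO and 1071 ± 3.87 TPM in WT livers at CT2, with a log2 fold change of 0.63 ± 0.17, adjusted p = 0.120 in edgeR. At CT2 Arg1 was called in KO livers by DESeq2 (adjusted p = 0.0117) and limma (0.0297), and averaged over times by limma (0.0252). Otc, which makes citrulline, and Nags, which makes the activator of Cps1, were not called by edgeR, with log2 fold changes of -0.22 ± 0.20 and 0.18 ± 0.16 in KO livers and -0.05 ± 0.20 and 0.00 ± 0.16 in LKO livers, averaged over times.

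Of the 7 genes of glutamate, glutamine and transamination, none passed the edgeR test in KO livers averaged over times and 1 did in LKO livers. The share of all genes called was 5.4% in KO livers and 3.13% in LKO livers. Got1, the cytosolic aspartate aminotransferase, averaged 233 ± 38.7 TPM in LKO and 94.5 ± 41.6 TPM in F livers at CT14 and 237 ± 54.6 TPM in LKO and 107 ± 53.6 TPM in F livers at CT2 (SD, n = 3 each). It rose in LKO livers by a log2 fold change of 1.02 ± 0.25, adjusted p = 0.0284, and was 0.80 ± 0.25, adjusted p = 0.0695 in KO livers, where it did not pass in edgeR but passed in DESeq2 (adjusted p = 0.0226) and limma (0.0299). The LKO call was lost without any 1 of 6 libraries (F CT2 replicate 1, F CT14 replicates 1 and 3, LKO CT2 replicate 2 and LKO CT14 replicates 2 and 3, with adjusted p from 0.0504 to 0.0742). It was also lost in the fit of LKO and F alone (0.0812). Gpt2, the mitochondrial alanine aminotransferase, had 143, 175 and 86.9 TPM in KO livers at CT14, against 215, 215 and 272 TPM in WT livers, while LKO livers had 195, 189 and 208 TPM, against 187, 204 and 197 TPM in F livers. All KO libraries lay below all WT libraries, and LKO overlapped F in TPM. In CPM all LKO libraries at CT14 lay below all F libraries (365, 382 and 393, against 470, 447 and 430). Gpt2 fell in KO livers at CT14 (-1.02 ± 0.24, adjusted p = 0.0127, and 0.0570 to 0.0769 without WT CT14 replicate 3 or KO CT14 replicate 3), and in LKO livers the interval of its log2 fold change at CT14 was -0.70 to 0.22. At CT2 it had 114, 105 and 98.9 TPM in KO livers, against 97.5, 110.1 and 105 TPM in WT livers. LKO livers had 71.2, 83.0 and 119 TPM at CT2, against 99.0, 72.2 and 121 TPM in F livers, with overlap in both pairs.

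Glul, the glutamine synthetase of the hepatocytes around the central vein, had 758, 629.7 and 522 TPM in KO livers at CT14, against 689, 465 and 535 TPM in WT livers. KO livers had 457, 667 and 717 TPM at CT2, against 482, 659 and 578 TPM in WT livers. KO and WT livers overlapped at both times. In LKO livers it had 749, 639 and 780.1 TPM at CT14, against 507, 699.7 and 537 TPM in F livers. LKO livers had 639.9, 666 and 877 TPM at CT2, against 393, 475 and 848 TPM in F livers. LKO and F livers overlapped as well. Gls2, the liver glutaminase of the periportal zone, had 280.0, 308 and 329 TPM in KO livers at CT14, against 219, 239 and 244 TPM in WT livers. KO livers had 349, 212 and 344 TPM at CT2, against 237, 248 and 279 TPM in WT livers. The ends of this intercellular glutamine cycle were thus not called, and the interval of the mean KO log2 fold change was -0.37 to 0.29 for Glul and -0.14 to 0.46 for Gls2. In LKO livers Gls2 had 269, 217 and 221 TPM at CT14, against 173, 232 and 216 TPM in F livers. LKO livers had 273, 306 and 329 TPM at CT2, against 164, 154 and 289 TPM in F livers, and the LKO intervals were -0.20 to 0.46 for Glul and -0.15 to 0.45 for Gls2. Glud1, glutamate dehydrogenase, Got2, the mitochondrial aspartate aminotransferase, and Gpt, the cytosolic alanine aminotransferase, were not called by edgeR in KO livers (0.20 ± 0.10, -0.01 ± 0.14 and 0.09 ± 0.16) or in LKO livers (0.21 ± 0.10, 0.10 ± 0.14 and 0.08 ± 0.16). Limma called Glud1 averaged over times in KO livers (adjusted p = 0.0401) and LKO livers (0.0216).

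All 3 glycine and glyoxylate genes rose in KO livers averaged over times, beside 5.4% of all genes called, and at CT14, beside 5.31%. The Gldc calls and the Agxt call at CT14 were lost without some single libraries, as given below. Agxt, alanine-glyoxylate aminotransferase, which removes glyoxylate before it becomes oxalate, had 483, 643 and 1248 TPM in KO livers at CT14, against 257, 301 and 291 TPM in WT livers. LKO livers had 621, 498 and 438 TPM at CT14, against 109.9, 158 and 157 TPM in F livers. Both knockouts were above their controls at CT14. At CT2 it had 752, 606 and 568 TPM in KO livers, against 262, 420.1 and 448 TPM in WT livers. LKO livers had 539.6, 533 and 648 TPM at CT2, against 262, 172 and 447 TPM in F livers. Knockout and control libraries did not overlap in any of the 4 pairs, and KO CT14 replicate 3, the library high in interferon-stimulated genes, was the highest of all. Averaged over times Agxt rose by a log2 fold change of 0.96 ± 0.23, adjusted p = 0.0138 in KO livers and 1.23 ± 0.23, adjusted p = 0.00319 in LKO livers. At CT14 alone the changes were 1.27 ± 0.32, adjusted p = 0.0217 in KO livers and 1.63 ± 0.33, adjusted p = 0.00820 in LKO livers. The KO call was lost without any WT CT14 library or KO CT14 replicate 3 (adjusted p from 0.0542 to 0.193) and the LKO call without F CT14 replicate 1 (0.0505).

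Gldc and Amt encode the glycine decarboxylase and the aminomethyltransferase of the glycine cleavage system, which hands a one-carbon unit to folate. Amt had 62.3, 62.2 and 61.9 TPM in KO livers at CT14, against 19.4, 18.6 and 25.6 TPM in WT livers. KO livers had 50.5, 68.5 and 69.0 TPM at CT2, against 66.4, 58.2 and 66.5 TPM in WT livers. KO livers at CT14 were at the level that both genotypes had at CT2, and WT livers at CT14 lay far below. In LKO livers Amt had 41.6, 33.3 and 34.5 TPM at CT14, against 12.6, 28.9 and 25.9 TPM in F livers. LKO livers had 48.5, 48.6 and 62.9 TPM at CT2, against 53.3, 45.3 and 52.7 TPM in F livers, with no overlap at CT14 and overlap at CT2. The log2 fold change at CT14 was 1.34 ± 0.19, adjusted p = 0.000120 in KO livers, and 0.54 ± 0.18, adjusted p = 0.189 in LKO livers, where it did not pass the test. Averaged over times Amt rose in KO livers (0.58 ± 0.13, adjusted p = 0.00944) and was 0.24 ± 0.13, adjusted p = 0.479 in LKO livers.

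Gldc had 159.9, 138 and 134 TPM in KO livers at CT14, against 59.9, 65.8 and 93.8 TPM in WT livers. LKO livers had 127, 126 and 109 TPM at CT14, against 41.2, 70.5 and 71.0 TPM in F livers. The pairs at CT14 did not overlap. At CT2 it had 108, 133 and 142 TPM in KO livers, against 77.6, 117 and 104 TPM in WT livers. LKO livers had 111, 121 and 127 TPM at CT2, against 99.7, 69.2 and 94.2 TPM in F livers. At CT2, KO and WT livers overlapped, and LKO and F livers were apart in TPM and overlapped in CPM. Gldc rose at CT14 by a log2 fold change of 0.78 ± 0.19, adjusted p = 0.0196 in KO livers and 0.76 ± 0.19, adjusted p = 0.0482 in LKO livers, and averaged over times by 0.49 ± 0.14, adjusted p = 0.0372 in KO livers and 0.52 ± 0.14, adjusted p = 0.0375 in LKO livers. These calls lie near the threshold. Averaged over times, both were lost without any 1 of 8 of the 12 libraries compared, with adjusted p up to 0.104 in KO livers and up to 0.105 in LKO livers. The calls that held were those without WT CT2 replicate 2, WT CT14 replicate 3, KO CT14 replicate 2 or KO CT14 replicate 3, and without F CT2 replicate 3, F CT14 replicate 3, LKO CT2 replicate 1 or LKO CT14 replicate 3. At CT14 the KO call was lost without WT CT14 replicate 1, WT CT14 replicate 2 or KO CT14 replicate 1 (up to 0.118), and the LKO call without any of its 6 libraries (0.0771 to 0.206). Without the 2 KO libraries that carried spermatid transcripts, Gldc was not called in KO livers averaged over times (0.137) or at CT14 (0.117), nor were Sds (0.0595) and Oat (0.146) at CT14.

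Of the 8 genes of methionine, homocysteine and cysteine metabolism, 3 rose in KO livers averaged over times, beside 5.4% of all genes called. In LKO livers 1 rose, beside 3.13% of all genes called. Cbs, cystathionine beta-synthase, which commits homocysteine to cysteine synthesis, had 435, 434 and 491 TPM in KO livers at CT14, against 112, 93.6 and 82.9 TPM in WT livers. LKO livers had 309, 361 and 298 TPM at CT14, against 89.5, 124 and 116 TPM in F livers. Both knockouts lay well above their controls with no overlap, and the smallest adjusted p of any member in any comparison was that of Cbs in KO livers at CT14 (2.0 ± 0.22, adjusted p = 7.37e-06; 1.40 ± 0.21, adjusted p = 0.000735 in LKO livers). At CT2 it had 321, 386 and 351 TPM in KO livers, against 234, 214 and 217 TPM in WT livers. LKO livers had 278, 328 and 583 TPM at CT2, against 215, 204 and 395 TPM in F livers. In CPM the KO livers had 813, 660.0 and 672 at CT2, against 657, 605 and 522 in WT livers, a log2 fold change of 0.27 ± 0.21, adjusted p = 0.863, so that the levels per length separated further than the counts did. Averaged over times Cbs rose by 1.13 ± 0.15, adjusted p = 7.30e-05 in KO livers and 0.79 ± 0.15, adjusted p = 0.00348 in LKO livers, and these calls at CT14 and over both times held without any 1 library.

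Bhmt, betaine-homocysteine methyltransferase, which returns homocysteine to methionine and is the second most abundant member, had 2956, 3557 and 5753 TPM in KO livers at CT14, against 819, 911 and 977 TPM in WT livers. KO livers had 3940.0, 3589.9 and 5673 TPM at CT2, against 1101, 1563 and 1744 TPM in WT livers. Every KO library was above every WT library at both times. LKO livers had 2636, 4095 and 2588 TPM at CT14, against 289, 1748 and 994 TPM in F livers. LKO livers had 2985, 2371 and 2262 TPM at CT2, against 1747, 2748 and 931 TPM in F livers, with no overlap at CT14 and overlap at CT2. Bhmt rose by a log2 fold change of 1.71 ± 0.32, adjusted p = 0.00216 in KO livers averaged over times, the largest mean change of any member there. In LKO livers it was 0.86 ± 0.31, adjusted p = 0.177, which passed in limma (adjusted p = 0.0219) and not in edgeR or DESeq2. At CT14 it was 1.43 ± 0.44, adjusted p = 0.132 in LKO livers, with calls by DESeq2 (0.0238) and limma (0.0231). The difference between the KO and LKO effects was 0.85 ± 0.44 with an interval of -0.01 to 1.70. The KO call at CT14 (1.97 ± 0.45, adjusted p = 0.0111) was lost without WT CT14 replicate 1 or KO CT14 replicate 3 (adjusted p of 0.0582 to 0.0616), while the call over both times held without any 1 library.

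Cdo1, cysteine dioxygenase, the first step of cysteine breakdown towards taurine, had 1932, 1720.4 and 1715 TPM in KO livers at CT14, against 826, 622 and 648 TPM in WT livers. KO livers had 1878, 1580.5 and 1578 TPM at CT2, against 899, 1372 and 1283 TPM in WT livers. It rose at CT14 (1.16 ± 0.24, adjusted p = 0.00450) and averaged over times (0.77 ± 0.17, adjusted p = 0.00717), and the KO and WT libraries at CT2 overlapped in CPM though not in TPM. LKO livers had 1674, 1629 and 1633 TPM at CT14, against 761, 1424 and 1183 TPM in F livers. LKO livers had 1751, 2108 and 897 TPM at CT2, against 969, 896 and 1329 TPM in F livers, and the mean difference of 0.35 ± 0.17, adjusted p = 0.378 did not pass. Mat1a, which makes S-adenosylmethionine, averaged 2475 ± 476 TPM in KO and 1319.6 ± 200.3 TPM in WT livers at CT14, with a mean log2 fold change of 0.68 ± 0.26, adjusted p = 0.146, and was -0.22 ± 0.26 in LKO livers. Gnmt, which uses S-adenosylmethionine to methylate glycine and was the most abundant member (3726 TPM over the 24 libraries), was 0.21 ± 0.17 in KO and 0.20 ± 0.17 in LKO livers. Ahcy, which hydrolyses S-adenosylhomocysteine, was -0.44 ± 0.18, adjusted p = 0.186 in KO livers and -0.59 ± 0.18, adjusted p = 0.0814 in LKO livers. Cth, which splits cystathionine into cysteine, was 0.42 ± 0.19, adjusted p = 0.233 in KO livers and 0.29 ± 0.19, adjusted p = 0.616 in LKO livers. Csad, which decarboxylates cysteine sulfinate, was -0.22 ± 0.52 in KO livers and 0.44 ± 0.52 in LKO livers, with the widest standard error of the group.

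**Figure D3:**
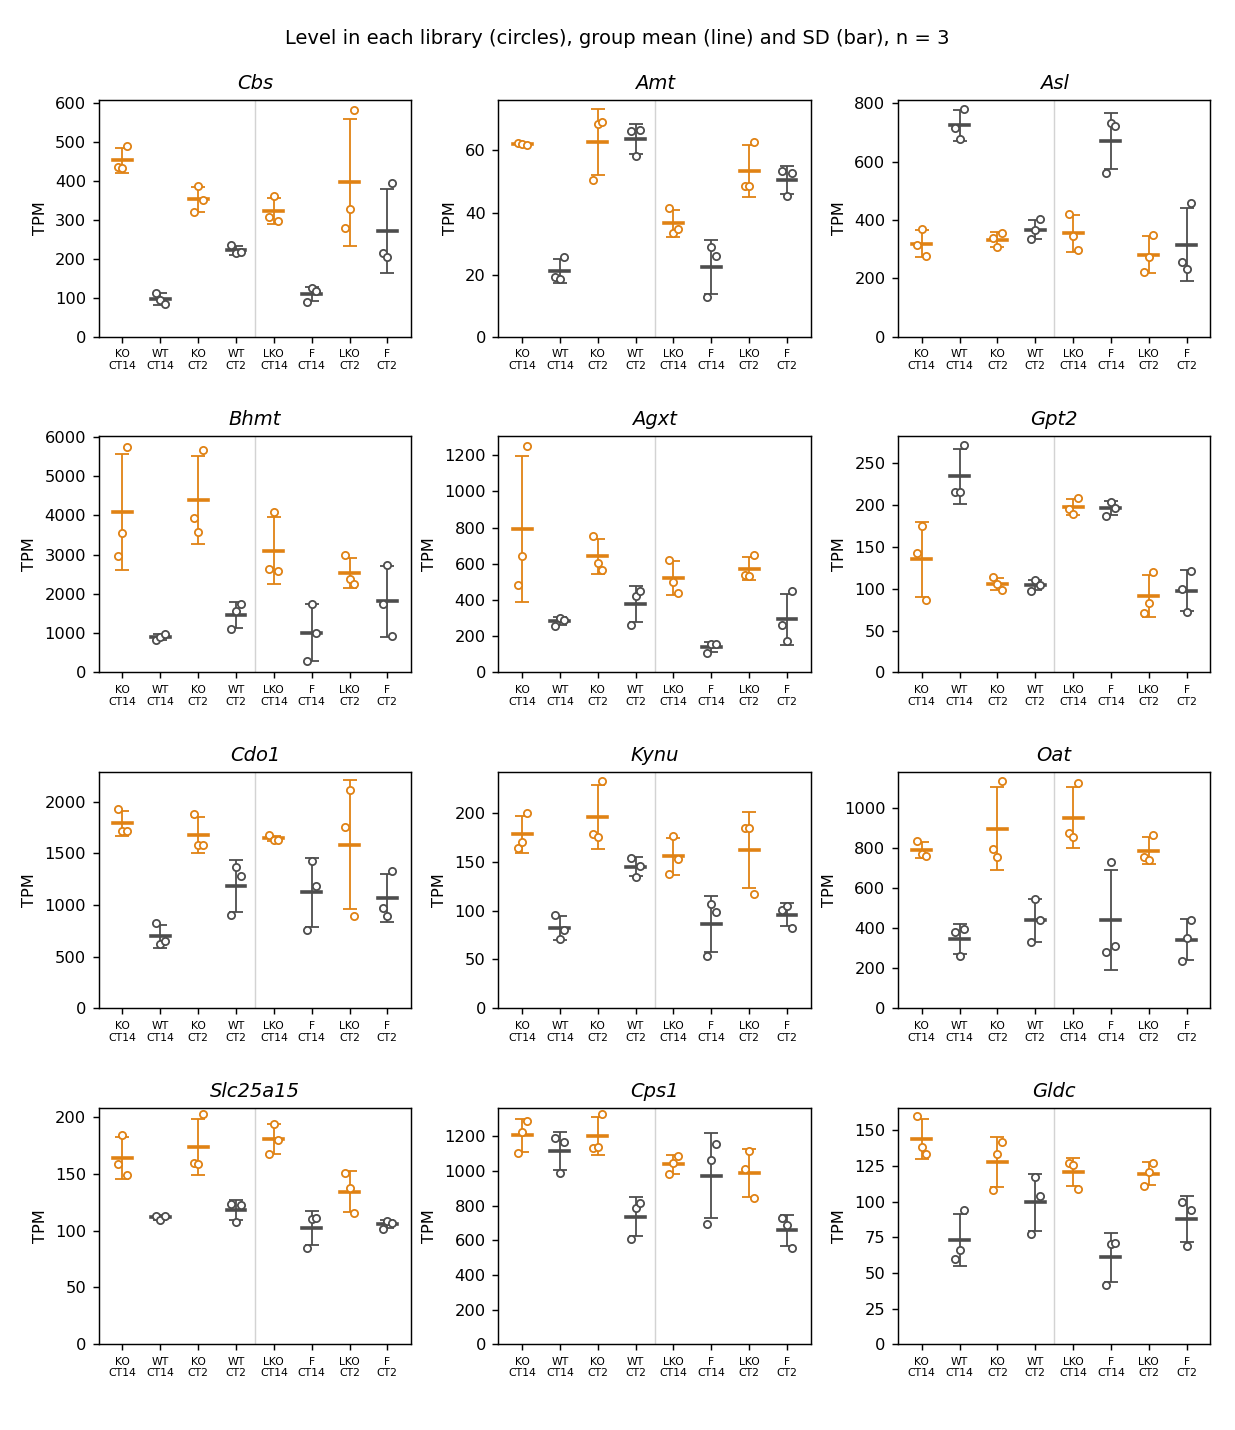
TPM of the 12 members with the smallest adjusted p in any comparison, by group; circles are libraries, lines are means and bars are SD (n = 3). Cbs, Amt and Asl separate the WT and F livers at CT14 from the other groups, whereas Bhmt and Oat are higher in KO than in WT livers at both times.

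Among the 3 genes of proline and ornithine, Oat, the ornithine aminotransferase that feeds ornithine to glutamate in pericentral hepatocytes, rose in both knockouts. It had 837, 771 and 762 TPM in KO livers at CT14, against 382, 263 and 397 TPM in WT livers. KO livers had 798, 758 and 1134 TPM at CT2, against 332, 546 and 442 TPM in WT livers. These groups were apart at both times. LKO livers had 875, 857 and 1127 TPM at CT14, against 283, 731 and 309 TPM in F livers. LKO livers had 758, 739 and 868 TPM at CT2, against 234, 354 and 439 TPM in F livers. Knockout and control libraries did not overlap in any pair, and the mean log2 fold change was 0.94 ± 0.20, adjusted p = 0.00799 in KO livers and 0.96 ± 0.20, adjusted p = 0.00984 in LKO livers. The KO call at CT14 (0.99 ± 0.29, adjusted p = 0.0489) was lost without any 1 of its 6 libraries (adjusted p from 0.0761 to 0.207), and the LKO call was lost in the fit of LKO and F alone (0.0599). The 13 other pericentral markers, without Oat and Glul, summed to 7536 to 10775 TPM in KO livers at CT14, against 7210 to 9196 TPM in WT livers. At CT2 the sums were 9558 to 10292 TPM in KO livers, against 5121 to 7110 TPM in WT livers. They were 7983 to 11033 TPM in LKO livers over both times, against 4206 to 7517 TPM in F livers. Of these 13, none at 0, 2 rose and 1 fell in KO livers and 1 rose in LKO livers averaged over times; their part in the rise of Oat was not tested. Prodh, proline oxidase, and Aldh4a1, the next enzyme of proline breakdown, were 0.22 ± 0.16 and -0.05 ± 0.14 in KO livers and -0.30 ± 0.16 and 0.15 ± 0.14 in LKO livers, and did not pass.

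Of the 4 tryptophan genes, 1 rose in each knockout averaged over times. Of all genes, 5.4% were called in KO livers and 3.13% in LKO livers. Kynu, the kynureninase that splits off alanine on the way to NAD, had 164, 170.2 and 199.7 TPM in KO livers at CT14, against 95.8, 71.3 and 79.99 TPM in WT livers. KO livers had 178, 176 and 233 TPM at CT2, against 154, 135 and 146 TPM in WT livers. The WT livers were lower at CT14 than at CT2, and KO livers lay above them at both times. LKO livers had 138, 176 and 152 TPM at CT14, against 53.1, 107 and 98.6 TPM in F livers. LKO livers had 184, 184 and 117 TPM at CT2, against 100.3, 105 and 82.4 TPM in F livers. In TPM all 4 pairs were apart, and in CPM KO and WT overlapped at CT2. The log2 fold change was 0.93 ± 0.19, adjusted p = 0.00532 in KO livers at CT14, 0.61 ± 0.14, adjusted p = 0.0107 averaged over times, and 0.62 ± 0.14, adjusted p = 0.0127 in LKO livers, where it was 0.0502 without LKO CT14 replicate 2. That LKO call was also lost in the fit of LKO and F alone (0.0789). Tdo2, the tryptophan dioxygenase at the head of the pathway and a known glucocorticoid target, was -0.35 ± 0.22, adjusted p = 0.469 in KO livers and -0.02 ± 0.22, adjusted p = 1 in LKO livers. Kmo and Haao, the hydroxylase before Kynu and the dioxygenase after it, were 0.16 ± 0.17 and 0.18 ± 0.14 in KO livers and -0.12 ± 0.17 and -0.07 ± 0.14 in LKO livers.

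The tyrosine, branched-chain, histidine, serine and threonine genes gave few calls. Tyrosine breakdown is carried by Hpd, Hgd and Fah in order, and the 3 genes had a median log2 fold change of 0.32 in KO and 0.26 in LKO livers with none called by edgeR (0.06 ± 0.17, 0.35 ± 0.12 and 0.32 ± 0.13 in KO livers). Limma called Hgd in KO livers (adjusted p = 0.00520) and LKO livers (0.00295), and Fah in KO livers (0.0206) and LKO livers (0.0231), averaged over times. Bckdha and Bckdhb, subunits of the branched-chain keto acid dehydrogenase, were -0.07 ± 0.15 and 0.32 ± 0.20 in KO livers and 0.06 ± 0.15 and -0.20 ± 0.20 in LKO livers. Bckdk, the kinase that inhibits this complex and the least abundant member (6.31 TPM over the 24 libraries), was -0.03 ± 0.16 in KO and -0.17 ± 0.16 in LKO livers. Sds, serine dehydratase, which makes pyruvate from serine, averaged 178 ± 63.6 TPM in KO and 329.5 ± 38.3 TPM in WT livers at CT14 (SD, n = 3 each) and fell there (-1.11 ± 0.30, adjusted p = 0.0295). That call was lost without WT CT14 replicate 1, WT CT14 replicate 2, KO CT14 replicate 1 or KO CT14 replicate 3 (adjusted p from 0.0580 to 0.145) and on TPM. Sdsl, the related dehydratase, was 0.21 ± 0.20 in KO livers, and Hal and Uroc1, the first enzymes of histidine breakdown, were 0.09 ± 0.19 and 0.26 ± 0.12. In LKO livers Sds, Sdsl, Hal and Uroc1 were -0.15 ± 0.21, -0.26 ± 0.20, -0.03 ± 0.19 and 0.04 ± 0.12, none of them called. The 11 periportal markers other than the members Gls2, Hal and Sds, none at 0, summed to 4435 to 5788 TPM in KO livers at CT14, against 5487 to 6095 TPM in WT livers, and to 4308 to 5174 TPM in LKO livers, against 3862 to 4062 TPM in F livers; 1 rose and 2 fell in KO livers averaged over times, and their part in the fall of Sds was not tested.

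None of the 3 amino acid transporters was called by edgeR between a knockout and its control. Slc38a4, a sodium-coupled neutral amino acid importer of the hepatocyte, had 482, 455 and 424 TPM in KO livers at CT14, against 501, 433 and 504 TPM in WT livers. KO livers had 464, 430.0 and 620.4 TPM at CT2, against 387, 387 and 421 TPM in WT livers. KO and WT livers overlapped at CT14 and, at CT2, were apart in TPM and overlapped in CPM. LKO livers had 452, 466 and 452 TPM at CT14, against 340.2, 450.2 and 436 TPM in F livers. LKO livers had 531, 606 and 375 TPM at CT2, against 293, 317 and 272 TPM in F livers. LKO and F livers were apart in TPM and overlapped in CPM at both times. The mean log2 fold change of Slc38a4 had an interval of -0.30 to 0.14 in KO livers and -0.03 to 0.41 in LKO livers. Limma called it in LKO livers averaged over times (adjusted p = 0.0182), and at CT2 it was called by limma (0.0287) and DESeq2 (0.0483). Slc38a3, a glutamine carrier, was -0.18 ± 0.14 in KO and -0.22 ± 0.14 in LKO livers. Slc7a2, a cationic amino acid carrier that takes up arginine, was -0.66 ± 0.20, adjusted p = 0.0545 in KO livers and 0.36 ± 0.20, adjusted p = 0.478 in LKO livers, and its control lines differed. DESeq2 called it in KO livers (adjusted p = 0.0178). It averaged 26.0 ± 5.07 TPM at CT14 and 28.3 ± 2.63 TPM at CT2 in F livers, against 55.3 ± 9.22 TPM and 36.0 ± 7.01 TPM in WT livers (SD, n = 3 each). The log2 fold change of F over WT livers was -0.75 ± 0.20, adjusted p = 0.0448, and Slc7a2 was the only member of 45 called there, beside 2.54% of all genes. That call was lost without any 1 library but WT CT14 replicate 3 or F CT2 replicate 2 (adjusted p from 0.0557 to 0.112).

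The same members were then followed between the sampling times within each genotype. In WT livers at CT14 against CT2, 3 members rose and 4 fell, beside 2.54% of all genes (1.1% higher, 1.44% lower). Gpt2, Asl and Cps1 rose, and Amt, Cbs, Hal and Kynu fell. In F livers 2 rose and 2 fell, beside 2.66% of all genes (1.33% higher, 1.33% lower). These were Asl, Gpt2, Amt and Cbs, which is 57.1% of the WT list and 100% of the F list. The overlap of these lists over all genes is not given here either. The log2 fold change of Amt was -1.53 ± 0.19, adjusted p = 4.17e-05 in WT livers and -1.16 ± 0.19, adjusted p = 0.00128 in F livers, and that of Cbs was -1.43 ± 0.21, adjusted p = 0.000431 in WT livers and -1.48 ± 0.21, adjusted p = 0.000440 in F livers. Asl rose by 1.07 ± 0.23, adjusted p = 0.0109 in WT livers and 1.05 ± 0.23, adjusted p = 0.0131 in F livers, and Gpt2 by 1.25 ± 0.24, adjusted p = 0.00416 in WT livers and 1.04 ± 0.24, adjusted p = 0.0194 in F livers. Cps1 rose in WT livers (0.68 ± 0.16, adjusted p = 0.0188) and was 0.57 ± 0.16, adjusted p = 0.0552 in F livers. Hal, histidase, averaged 58.5 ± 4.14 TPM at CT14 and 126 ± 14.1 TPM at CT2 in WT livers (SD, n = 3 each) and fell (-1.02 ± 0.27, adjusted p = 0.0420), as did Kynu (-0.76 ± 0.19, adjusted p = 0.0381). DESeq2 also called Arg1 (0.61, adjusted p = 0.00790), Gpt, Sds and Prodh as higher and Bckdk as lower in WT livers. In F livers it also called Arg1 (0.59, adjusted p = 0.00884) and Cps1 as higher and Agxt, Bckdk and Hal as lower. Its share over all genes between times is not given here. Limma added no member in WT or F livers and did not call Cps1 or Kynu in WT livers.

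Amt, Cbs and Gpt2 in WT livers and Amt and Cbs in F livers were called without any 1 library. The WT calls of Hal and Kynu were lost without any 1 of the 6 libraries (adjusted p from 0.0830 to 0.147 and from 0.0559 to 0.172), that of Cps1 without WT CT2 replicate 1 or any WT CT14 library (up to 0.114), and that of Asl without WT CT2 replicate 1 (0.0591). The WT count was 4 without WT CT2 replicate 1 or any WT CT14 library. In F livers the call of Asl was lost without F CT2 replicate 1 or 2 or F CT14 replicate 2 (up to 0.0869) and that of Gpt2 without these or F CT14 replicate 1 (up to 0.0720); the F count was 2 without F CT14 replicate 2, and 0 with only F libraries in the fit (0.186% of all genes).

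In KO livers no member was called between CT14 and CT2 by edgeR, DESeq2 or limma, and 0% of all genes was called in edgeR. None of the members had an unadjusted p under 0.05 there, beside 3.67% of all genes. The interval of the log2 fold change was -0.38 to 0.34 for Amt and -0.11 to 0.71 for Cbs, and Asl and Cps1 were -0.05 ± 0.23 and 0.02 ± 0.16. In LKO livers 1 member was called, beside 0.848% of all genes: Gpt2 rose at CT14 by 1.04 ± 0.24, adjusted p = 0.0453, with 195, 189 and 208 TPM at CT14, against 71.2, 83.0 and 119 TPM at CT2. That call was lost without any library of the comparison but LKO CT2 replicate 3 (adjusted p from 0.101 to 0.194). Beyond Gpt2, DESeq2 called Arg1 in LKO livers (0.61, adjusted p = 0.0108). All LKO libraries at CT14 lay above those at CT2 for Arg1, in TPM and in CPM. Limma called Gpt2 alone in LKO livers. In KO livers Gpt2 was 0.35 ± 0.24, and its libraries at CT14 and CT2 overlapped.

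**Figure D4:**
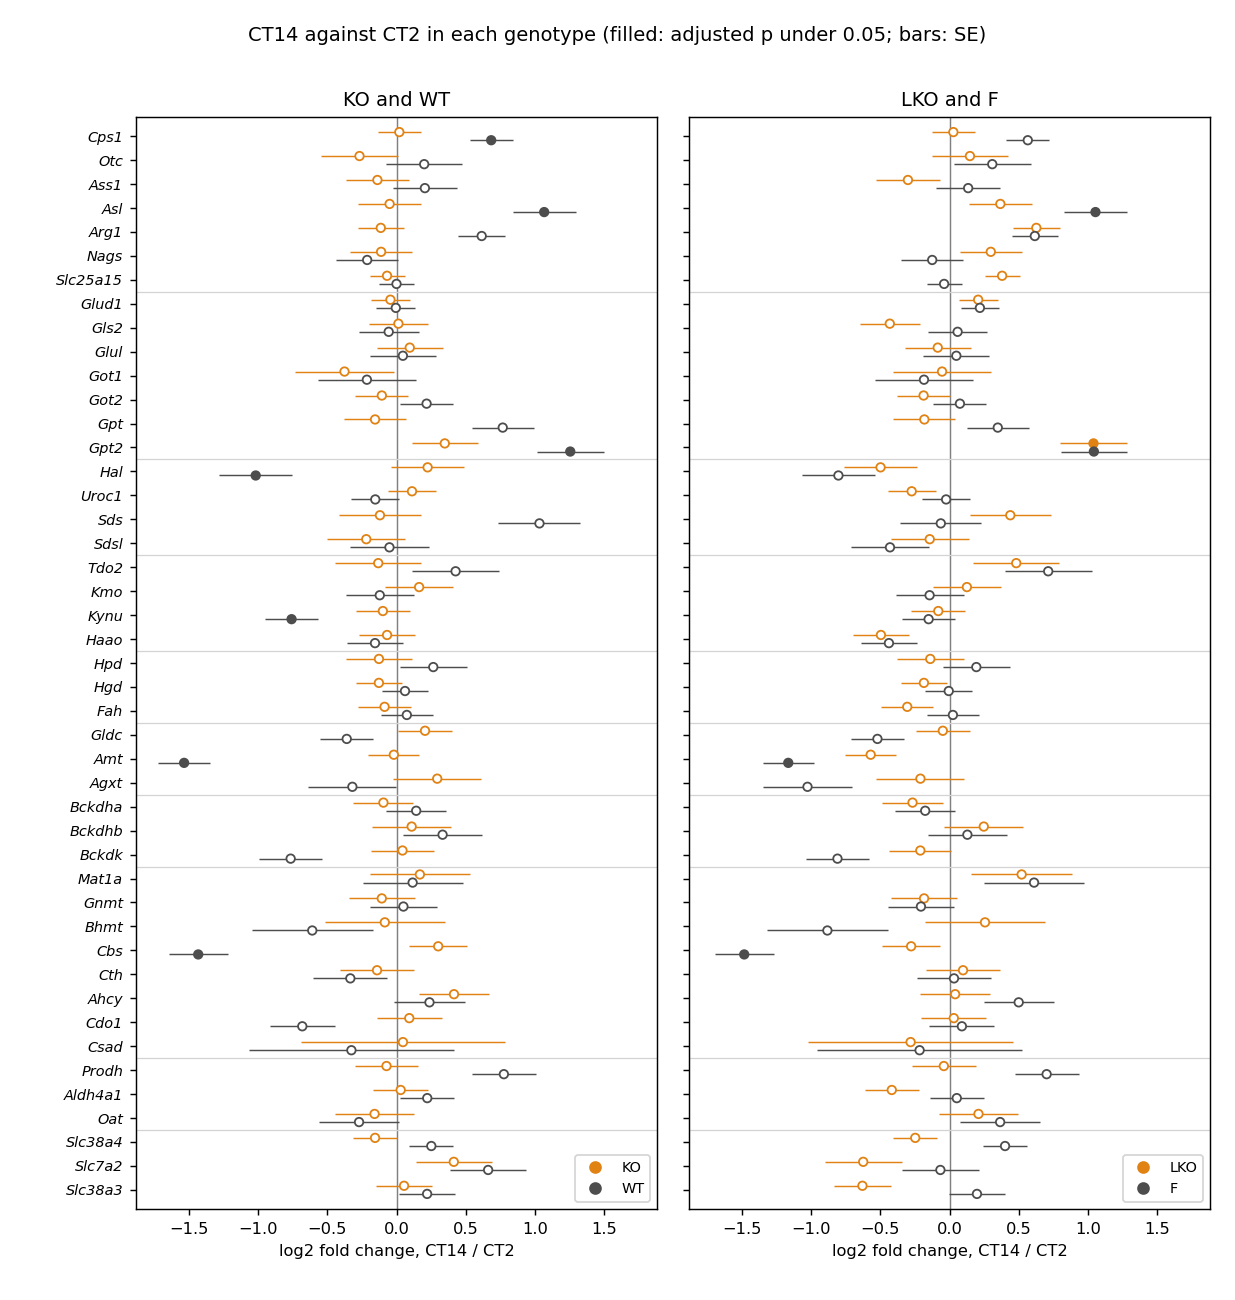
Log2 fold change of each member at CT14 over CT2, with KO and WT in the left panel and LKO and F in the right, knockouts in orange and controls in grey; bars are ± 1 SE and filled points passed adjusted p under 0.05. Amt and Cbs lie near 0 in KO livers and far to the left in WT and F livers, and Gpt2 lies to the right in WT, F and LKO livers.

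The time effect itself differed between KO and WT livers for 2 members, beside 0.799% of all genes. The CT14 against CT2 change of Cbs was higher in KO than in WT livers by 1.73 ± 0.30, adjusted p = 0.00445, and that of Amt by 1.51 ± 0.26, adjusted p = 0.00445, and both held without any 1 library. Asl (-1.12 ± 0.32, adjusted p = 0.139), Hal (1.24 ± 0.37, adjusted p = 0.173), Cps1 (-0.66 ± 0.22, adjusted p = 0.244), Gpt2 (-0.91 ± 0.34, adjusted p = 0.319) and Sds (-1.15 ± 0.42, adjusted p = 0.302) were among 13 members with an unadjusted p under 0.05 (9.17% of all genes). Between LKO and F livers no member was called in edgeR, beside 0.112% of all genes, although 8 had an unadjusted p under 0.05 (6.22%). The interval for Cbs was 0.62 to 1.79 around 1.21 ± 0.30 (0.161 adjusted p), and DESeq2 called Cbs (0.788% of all genes) and limma no member. Without LKO CT2 replicate 3, edgeR called Cbs. For Amt the LKO minus F value was 0.60 ± 0.26, adjusted p = 0.732. Between the LKO and KO livers no time effect differed by edgeR (0.0341% of all genes; 5 members at an unadjusted p under 0.05, beside 8.97%), DESeq2 or limma.

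The global and the liver-specific effects were compared directly, each against its own control. No member passed that test of the difference in edgeR (0.107% of all genes), and 4 had an unadjusted p under 0.05 (8.12%). DESeq2 called Slc7a2 (1.09%) and limma no member. Slc7a2 had the widest gap, -1.02 ± 0.28 with an interval of -1.56 to -0.48, with its KO change on the low side and its LKO change on the high side of 0. The gap for Mat1a was 0.90 ± 0.36, adjusted p = 0.481. For the members called in both knockouts the intervals were -0.07 to 0.75 for Cbs, -0.54 to 0.34 for Asl, -0.88 to 0.36 for Agxt, -0.58 to 0.54 for Oat, -0.39 to 0.37 for Kynu, -0.24 to 0.25 for Slc25a15 and -0.41 to 0.35 for Gldc. Of the 35 members not called in KO livers, 31 had an interval inside 1 log2 unit either way and 17 inside 0.5; of the 37 not called in LKO livers these were 35 and 20.

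Other genes of amino acid metabolism, 59 of 62 listed being testable, were counted beside the members. In KO livers averaged over times 4 rose and 5 fell, beside 5.4% of all genes called. The log2 fold changes were -3.88 ± 0.53 for Asns, asparagine synthetase, 0.88 ± 0.14 for Dmgdh, dimethylglycine dehydrogenase, which acts after Bhmt in betaine breakdown, -0.83 ± 0.19 for Tat, tyrosine aminotransferase, and 0.75 ± 0.21 for Slc3a1, a subunit of a cystine and basic amino acid carrier. In LKO livers 6 rose and 3 fell, beside 3.13% of all genes. Asns was at -2.84 ± 0.49, Slc3a1 at -1.08 ± 0.22, Aadat, an aminotransferase of kynurenine and aminoadipate, at 0.99 ± 0.18, and Amdhd1, imidazolonepropionase, which follows Uroc1 in histidine breakdown, at 0.86. Slc3a1 thus rose in KO and fell in LKO livers, and the difference between these effects was 1.83 ± 0.30 (adjusted p = 0.0167). Asns also differed between the control lines, F over WT, by 1.77 ± 0.47 (adjusted p = 0.0487), and averaged 9.41 ± 4.23 TPM at CT14 and 16.2 ± 11.8 TPM at CT2 in F livers, against 4.47 ± 1.84 TPM and 2.93 ± 0.807 TPM in WT livers (SD, n = 3 each). Replicate 3 of F at each time carried the pancreatic transcripts, and their part in the Asns values was not tested. Amdhd1 fell at CT14 against CT2 in WT livers by a log2 fold change of 1.48 and in F livers by 1.21. Of 30 regulators, 3 rose and 3 fell in KO livers averaged over times, led on the log2 scale by Nr1d1 at -3.11 and Nr1d2 at -2.80, the REV-ERB repressors, with Atf5, an amino acid stress factor, at 1.15. In LKO livers 2 rose and 2 fell, led by Nr1d1 at -1.69 and Nr1d2 at -1.54. Between CT14 and CT2, 11 regulators rose and 2 fell in WT livers (2.54% of all genes called) and 9 rose and 2 fell in F livers (2.66%). None passed in KO livers (0%), and 4 rose and 1 fell in LKO livers (0.848%), among them Fkbp5, a glucocorticoid target, at 1.88.

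In the authors' deposited tables, whose fold changes come from a separate test of each pair of groups, 15 members were called in KO against WT livers with both times pooled (8.31% of the genes with an adjusted p) and 5 in LKO against F livers (3.65%). By time, the authors' deposited tables called 18 members at CT14 (12.3% of genes) and 2 at CT2 (2.22%) in KO livers, and 10 at CT14 (11.7%) and 0 at CT2 (1.2%) in LKO livers. For CT14 against CT2 the authors' deposited tables called 15 members in WT (8.0% of genes), 3 in F (2.93%), 0 in KO (0.217%) and 2 in LKO livers (4.46%).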

How the data were processed

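Mouse liver polyA RNA was sequenced from stranded libraries, 24 in all, per the labels' protocols. Per the submitters' processing notes, fastp 0.23.2, HISAT2 2.2.1 and StringTie 1.3.1 were used with build GRCm39; for the annotation release and the strand setting, not given in the sources used here, nothing is assumed, so overlapping genes on opposite strands cannot be told apart. The authors deposited estimated counts, whole numbers whose low values pile up at multiples of 4, and TPM; the authors' deposited tables of comparisons hold log2 fold changes and p-values.

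Counts were tested with edgeR 4.0.16 in R 4.3.3 (quasi-likelihood, robust, TMM scaling, filterByExpr with a minimum count of 10 and total of 15). All 24 libraries entered 1 fit with 8 group means and 15 contrasts, and a member was called at a Benjamini-Hochberg adjusted p under 0.05 over 20514 genes. Errors of fold changes are SE, and intervals are 95% (1.96 SE). The script was tested on simulated data with 200 changed genes, drawn from all genes tested. For KO against WT at CT14, edgeR recovered 0% of 1.5-fold, 23.9% of 2-fold and 59.1% of 4-fold changes. For the mean of both times it recovered 10.4%, 40.3% and 65.2%. A gene that was not called may therefore still have changed. Recovery among genes at the members' own levels was not measured. Alternatives were limma 3.58.1 on log2(TPM + 1) and log2(TPM + 0.1), DESeq2 1.42.0, RLE size factors, no filter, counts divided by 4, a replicate block, fits of the compared groups alone, and fits without each library or without libraries that stood apart.

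The labels do not say whether replicates are separate animals, so p-values measure the spread between libraries. Every member is named; values per library are given for the 12 called members with the smallest adjusted p and for Cps1, Glul, Gls2 and Slc38a4. Of the genes that are not members, at most the 4 called genes with the largest change in a list and comparison are named. The members, gene lists and alternatives were chosen with earlier results of these data known. Library totals ran from 88995300 to 131545000 estimated counts, no 2 libraries were identical, and correlations between replicates ran from 0.933 to 0.973.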

Additional observations from a re-analysis of the deposited data

Results flagged for a closer look

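The change of Cbs between CT14 and CT2 differed between KO and WT livers by 1.73 on the log2 scale, and that of Amt by 1.51, by a direct test of the difference (edgeR quasi-likelihood, adjusted p = 0.00445 for each). Cbs averaged 453 ± 32.4 TPM at CT14 and 353 ± 32.9 TPM at CT2 in KO livers, against 96.3 ± 14.9 TPM and 222 ± 11.1 TPM in WT livers (SD, n = 3 each). Amt averaged 62.1 ± 0.238 TPM at CT14 and 62.7 ± 10.52 TPM at CT2 in KO livers, against 21.2 ± 3.86 TPM and 63.7 ± 4.78 TPM in WT livers.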

How the results depend on the processing

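The 49 gene results, each called in the main fit, gave 902 pairs of a result and an alternative. The direction was kept in all 902 and none reversed, and the call was kept in 744 and lost in 158. The alternatives reused libraries of the main fit, so kept directions are not independent evidence. Counts of called members that moved by over 1.5 times, or passed to or from 0, are given here; the cause was not tested, except that fits without libraries or of the compared groups alone hold fewer samples. With limma on TPM at either pseudocount, the count was 17 in KO against WT livers and 14 in LKO against F livers averaged over times, 1 in KO livers and 2 in LKO livers at CT2, 9 in LKO livers at CT14, and 0 in F against WT livers. With DESeq2 it was 4 in KO and 2 in LKO livers at CT2, and, for CT14 against CT2, 12 in WT, 9 in F and 2 in LKO livers, with 1 for the LKO minus F time effect and 1 for KO minus LKO. With only the compared groups in the fit it was 2 in LKO livers averaged over times, 0 in F and 0 in LKO livers between times, and 4 for the KO minus WT time effect. RLE size factors and no filter each gave 0 for LKO livers between times. Without the 3 libraries low in Ddx3y it was 16 in KO livers averaged over times, 7 in F and 3 in LKO livers between times, 1 for the LKO minus F time effect and 5 in F against WT livers. Without the 2 F libraries with pancreatic transcripts it was 5 in LKO livers averaged over times and 0 in F against WT livers, and without the KO library high in interferon-stimulated genes it was 6 in KO livers at CT14.

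Leaving out 1 library at a time gave 9 to 11 in KO livers averaged over times, 6 to 10 at CT14 and 0 to 0 at CT2; 4 to 8 in LKO livers averaged over times, 2 to 5 at CT14 and 0 to 0 at CT2; between times 4 to 5 in WT, 2 to 6 in F, 0 to 0 in KO and 0 to 1 in LKO livers; 2 to 2 for the KO minus WT time effect, 0 to 1 for LKO minus F, 0 to 0 for LKO minus KO and for KO minus LKO; and 0 to 1 in F against WT livers. The LKO count averaged over times was 5 without F CT2 replicate 1 or F CT14 replicate 1 and 4 without LKO CT14 replicate 2.

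Correlations of deviations between same-numbered libraries of different groups ran from -0.146 to 0.312 (median -0.006, 5 of 84 over 0.1). Between differently numbered libraries they ran from -0.297 to 0.188 (median 0.004, 7 of 168 over 0.1). These values cannot exclude a pairing by number, and the main fit used none. With the replicate block the count was 10 in KO livers averaged over times, 10 at CT14, 8 and 5 in LKO livers, 6 in WT and 5 in F livers between times, 0 in LKO livers between times and 0 in F against WT livers. Every member had at least 797 counts in every library.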

Other observations

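Csad, cysteine sulfinate decarboxylase, had the widest spread between replicates of all members, with a pooled SD of 0.933 in log2 CPM, against a median of 0.285 over the members and 0.232 over genes of their level range. It had 73.4, 373 and 57.1 TPM in KO livers at CT2 and 349, 50.1 and 63.5 TPM in F livers at CT14, so that 1 library in each group stood far above the others. Bhmt had the next widest spread (0.601), with 289, 1748 and 994 TPM in F livers at CT14.

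The members together took 3.15 to 3.48% of all TPM in KO livers at CT14, against 2.14 to 2.54% in WT livers, and 3.03 to 3.65% at CT2, against 2.04 to 2.56%. In LKO livers they took 2.99 to 3.02% at CT14, against 1.83 to 2.79% in F livers, and 2.73 to 3.04% at CT2, against 1.86 to 2.79%. The ranges of LKO and F overlapped at CT2, and no other pair did. In TPM, all genes of the members' level range shifted by a median log2 of 0.16 in KO and 0.20 in LKO livers averaged over times. In counts these shifts were 0.003 and -0.003. Bhmt alone had 2956 to 5753 TPM in KO livers at CT14, against 819 to 977 TPM in WT livers. The part of the scaling and of Bhmt in these shares was not tested.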
